A study of Mus musculus with 6 samples.

Results

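The mouse Zfp genes (named for zinc finger protein) were examined in RNA of thymic NKT (natural killer T) cells purified by flow sorting. Members were the rows of the expression table whose symbol is Zfp followed by a digit, leaving out Zfp36, Zfp36l1 and Zfp36l2, which encode RNA-binding proteins with another kind of zinc finger. These were 152 of the 10772 genes listed. RNA had been sequenced from 3 wild-type (WT) libraries and 3 libraries labelled UTX/JMJD3 DKO, here DKO, for the pair of histone H3 lysine 27 demethylases encoded by Kdm6a and Kdm6b. Each genotype had 2 female libraries (replicates 1 and 2) and 1 male library (replicate 3), all of a mixed C57BL/6 and 129 background. All cells were from the P1 fraction, positive for a PBS-57-loaded CD1d tetramer and negative for CD44, NK1.1 and CD24. The sources used here do not give the age of the mice or the way the genes were deleted. By the labelled sexes the male library came from other mice than the female ones. Whether replicates 1 and 2 are separate animals is not stated, so the spread that the tests use may be partly technical.

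Most Zfp proteins carry C2H2 zinc fingers, small loops in which cysteines and histidines hold a zinc ion and which read DNA when set in tandem. Many also carry a KRAB box, which recruits the corepressor TRIM28 (KAP1) and through it the histone H3 lysine 9 methyltransferase SETDB1, and such proteins are best known for silencing retroelements. Others have no KRAB box and act as promoter-bound activators, as RNA-binding proteins, or in ribosome maturation and the mitotic spindle. The family label was checked against sequence by translating the longest reading frame of GENCODE M21 transcripts for the 147 members that could be matched. At least 1 C2H2 finger (C, 2 to 4 residues, C, 12 residues, H, 3 to 5 residues, H) was found in all of these but Zfp259, Zfp330 and Zfp365. A KRAB box pattern was found in 48 members, and 96 had fingers and no such pattern. The KRAB-containing members had a median of 11 fingers (range 2 to 23) and the others a median of 7 (range 1 to 31). The pattern misses diverged boxes, and a wider one, chosen after the data were seen, found 60.

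Promoters are shown for the lower and the higher Zfp gene with the largest log2 difference between genotypes, Zfp668 and Zfp54, and for Zfp143, an activator of many promoters. Each is the first start listed by RefSeq on GRCm38.p6, from 250 bases before to 50 bases after the start on the strand of the gene, at chr7:127876787-127877086 (minus), chr17:21422977-21423276 (plus) and chr7:110061452-110061751 (plus). Capitals mark matches on either strand to CCGGAAG (bound by ETS factors), GGGCGG (SP and KLF factors), the NRF1 motif, ATGGCGGC (YY1), ACTACAA (part of the Zfp143 site), CCAAT (NF-Y) and TATAAA.
Zfp668: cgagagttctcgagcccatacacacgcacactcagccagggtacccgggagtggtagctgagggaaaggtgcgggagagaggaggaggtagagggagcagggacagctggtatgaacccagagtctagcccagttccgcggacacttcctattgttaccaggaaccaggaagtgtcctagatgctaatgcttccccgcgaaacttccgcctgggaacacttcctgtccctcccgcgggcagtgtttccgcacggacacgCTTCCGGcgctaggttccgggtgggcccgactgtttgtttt
Zfp54: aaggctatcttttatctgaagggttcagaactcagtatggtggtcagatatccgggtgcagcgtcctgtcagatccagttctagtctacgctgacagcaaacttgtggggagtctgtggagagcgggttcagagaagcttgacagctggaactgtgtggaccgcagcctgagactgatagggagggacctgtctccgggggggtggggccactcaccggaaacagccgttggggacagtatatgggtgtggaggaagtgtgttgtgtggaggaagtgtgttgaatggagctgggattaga
Zfp143: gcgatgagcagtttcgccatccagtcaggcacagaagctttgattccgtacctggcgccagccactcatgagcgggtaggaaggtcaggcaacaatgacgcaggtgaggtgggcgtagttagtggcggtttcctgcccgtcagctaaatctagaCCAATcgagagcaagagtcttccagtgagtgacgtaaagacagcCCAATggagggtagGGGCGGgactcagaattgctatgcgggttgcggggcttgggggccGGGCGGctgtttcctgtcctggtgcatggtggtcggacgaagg
The Zfp668 window held 1 match, to the ETS motif, the Zfp54 window held 0 of the 7 motifs, and the Zfp143 window held 2 each of CCAAT and GGGCGG. RefSeq promoters matched 121 members, and these held a median of 16 CG dinucleotides in 300 bases, against 21 for the 6016 listed genes with a promoter and 7 for all 27025 promoters. CCAAT was in 47.9% of the members' promoters, 39.7% of those of listed genes and 37.9% of all promoters. GGGCGG was in 51.2%, 66.3% and 35.9%, and CCGGAAG in 20.7%, 22.0% and 9.12%. The other motifs were in 4.13% (ACTACAA and the NRF1 motif) or 6.61% (ATGGCGGC and TATAAA) of the members' promoters. In listed genes these shares were 5.04%, 2.34%, 6.27% and 6.63%, and in all promoters 3.45%, 0.977%, 2.38% and 14.2%, in the order ACTACAA, NRF1, ATGGCGGC and TATAAA. A match is a string of letters and no evidence of binding.

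Values were RPKM, in which reads are scaled to gene length and to the depth of the library. Read totals implied by the steps in the values were 32365700 and 34411300 for replicate 1 of WT and DKO and 5036910 to 7238850 for the other 4 libraries, so replicate 1 of each genotype was a deeper pair. Kdm6a was at 4.62 ± 2.57 (WT) and 4.59 ± 0.937 (DKO) RPKM, and Kdm6b at 2.80 ± 1.05 and 1.66 ± 0.834 (SD, n = 3 each), values over whole genes that do not separate deleted from kept exons and so do not check the labels. Of 15 NKT cell markers 14 were listed, Traj18 and Trav11 among them, with a summed RPKM of 5182 to 5863 in WT against 5578 to 6670 in DKO. The largest terms of this sum, Trbc2 and Trbc1, are shared with other T cells, so the sum does not check NKT identity. Traj18 was at 115 to 157 in WT against 167 to 176 in DKO, and Zbtb16 at 2.67 to 3.50 against 0.776 to 5.35. Of 11 markers of double-positive thymocytes 9 were listed, and they summed to 468 and 490 in replicate 1 of WT and DKO against 17.3 to 54.5 in the other libraries, where Dntt was at most 1.73 and Ptcra was listed at 0 in 3 of 4. The 18 cell cycle genes summed to 946 to 1328 in WT against 287 to 556 in DKO, and 5 of 10 gamma-delta and NK cell markers to 499 to 613 and 110 to 121. Of the markers of B cells, myeloid cells and stroma, 1 of 8, 2 of 10 and 0 of 8 were listed. The listed ones were Ighm, at 58.7 to 75.5 in WT against 23.7 to 85.0 in DKO, and Fcer1g and Cd74, which together summed to 9.06 to 19.7 and 7.24 to 41.3. The part of these differences in the results below was not tested, and in bulk RNA fewer cells of a type and less RNA per cell cannot be told apart.

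The Zfp genes were expressed at low levels. Their median level (mean RPKM over the 6 libraries) was 5.78, with quartiles of 3.78 and 10.6, against 14.4 with quartiles of 6.07 and 38.4 for all listed genes. A mean level under RPKM 10 was found for 110 of the 152 members (72.4%) and for 39.2% of all listed genes. The listed gene lengths were longer, with a median of 3062.5 bases against 1895.5. Every listed gene exceeded RPKM 3 in at least 2 libraries, and 59 members did so in all 6. Through this filter 103 members exceeded RPKM 3 in at least 2 libraries of both genotypes, 14 in at least 2 WT but fewer DKO libraries, 25 the other way round, and 10 in 1 library of each. For members carried in by 1 genotype the filter favoured a difference in that direction without forcing one. Zfp119b, carried in by WT, had means of 2.75 in WT and 2.80 in DKO. Zfp genes above RPKM 3 in fewer than 2 libraries were not listed. A median member had 676 and 797 reads in replicate 1 of WT and DKO and 81 to 140.5 reads in the other libraries.

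The 3 highest levels belonged to Zfp genes in which no KRAB box was found. Zfp706, a small zinc finger protein, was at RPKM 80.4, 103 and 122 in WT replicates 1 to 3 and 73.0, 133 and 85.5 in the DKO replicates. Zfp330, a nucleolar protein, was at 56.8, 69.0 and 60.3 in WT against 45.2, 78.4 and 91.9 in DKO, with 26.5% of the 36-base words of its transcript shared with other genes. Zfp207 (BuGZ), which loads the checkpoint protein BUB3 at kinetochores, was at 50.4, 64.7 and 85.4 in WT against 46.7, 61.7 and 69.0 in DKO. The genotypes overlapped for all of these. Next in level were Zfp622, Zfp259, Zfp639, Zfp1, Zfp524, Zfp422 and Zfp692, of which Zfp1 alone has a KRAB box. Zfp524 shares 46.6% of its 36-base words with other genes, so its level is uncertain. Zfp692 was at 17.3, 16.9 and 22.7 in WT against 26.7, 27.2 and 29.1 in DKO, so every DKO library lay above every WT library (log2 difference 0.53 ± 0.29 SE, adjusted p = 0.536, limma on log2(RPKM + 1)).

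**Figure D1:**
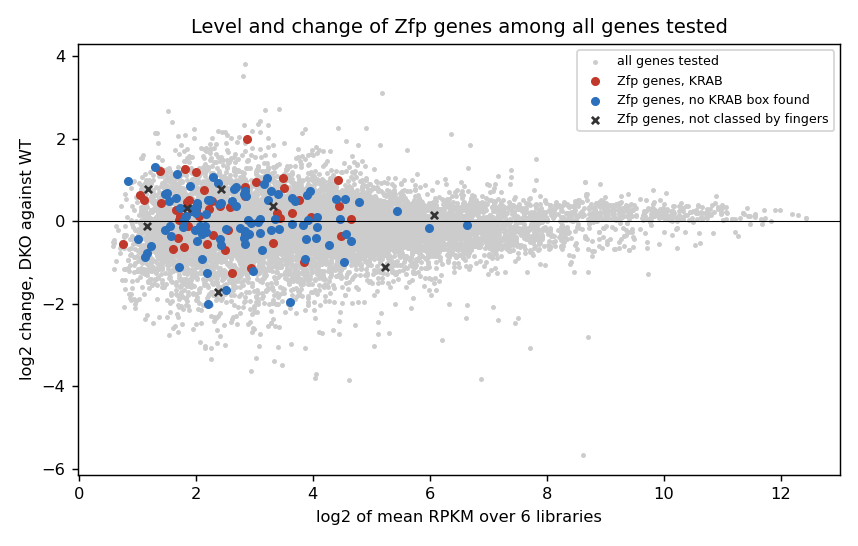
Log2 difference between DKO and WT (y) against the log2 of the mean RPKM over the 6 libraries (x) for all 10685 genes tested (grey) and the 152 Zfp genes, coloured by whether a KRAB box was found. The Zfp genes lie at the low end of the levels, with differences between -2.01 and 1.98.

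DKO and WT were compared for every listed gene by limma's moderated test on log2(RPKM + 1), with Benjamini-Hochberg adjustment over 10685 genes that included all 152 members. Fold changes on this scale understate the change of low genes. No Zfp gene passed an adjusted p of 0.05 (0 of 152, smallest adjusted p = 0.215 for Zfp668), where 0.0842% of all tested genes were lower and 0.0187% higher in DKO. A weighted linear model on recovered reads (voom) called 0 genes of the whole table, and 24 members (15.8%) were at an unadjusted p of 0.05, as were 15.7% of all genes. At an unadjusted p of 0.05 the limma test gave 3 members lower (1.97%, against 8.15% of all tested genes) and 6 higher (3.95%, against 2.89%). Of the lower ones Zfp668 exceeded RPKM 3 in at least 2 WT but fewer DKO libraries. Of the higher ones Zfp54, Zfp788, Zfp677 and Zfp628 did so the other way round. The filter of the table thus bears on these 2 counts, and no weight is placed on them. Groups did not overlap for 10 members with lower values in DKO (6.58%, against 11.4% of all genes) and for 14 with higher values (9.21%, against 5.72%). With median log2 ratio scaling or quantile normalization the lower ones numbered 4, and the share of all genes under these scalings was not computed. With means at least 2-fold apart as well, there were 5 members lower, where 5.35% of all genes were, and 7 higher, where 2.34% were. Of the 7, 6 exceeded RPKM 3 in at least 2 DKO but fewer WT libraries, and of the 5, 2 did so the other way round. The filter of the table let these in through the genotype where they were high, and no weight is placed on either count. Among the 103 members above RPKM 3 in at least 2 libraries of each genotype, 7 were separate on each side (6.80%), where 10.8% of all such genes were lower and 5.43% higher. The log2 difference lay above 0 for 87 members (57.2%, against 42.9% of all genes) and below 0 for 65. Members let in through 1 genotype are counted in these numbers. Among the 103 members, 59 lay above 0 (57.3%, against 43.7% of all such genes).

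The median log2 difference was 0.11 over the Zfp genes and -0.11 over all tested genes. The filter of the table let in 25 members through DKO only and 14 through WT only, so it bears on this median. Among the 103 members above RPKM 3 in at least 2 libraries of each genotype the median was 0.06, against -0.09 for all such genes. Quartiles of the members lay at -0.32 and 0.51, and 132 were within 1 log2 unit of 0. Taken by replicate number, the median of the members was 0.15 in the deeper pair, 0.26 in the pair of replicate 2 and 0.02 in the male pair, where the medians of all genes were -0.06, -0.15 and -0.05. Leaving out 1 library moved the members' median to -0.0017 without DKO replicate 1, 0.03 and 0.06 without WT replicates 3 and 2, 0.18 without WT replicate 1 and 0.26 without DKO replicate 3. Libraries of one genotype differed more for these genes than for all tested genes, with a median within-group SD of 0.63 log2 units against 0.48, and the median SE of a log2 difference was 0.54 against 0.43. The members were also lower in level (median RPKM 5.78, against 14.4 for all listed genes). Among members the SD fell as level rose (Spearman correlation -0.21). Genes of matched level were not compared. Zfp326 varied least (SD 0.10) and Zfp689 most (SD 1.75). Zfp689 was at RPKM 3.35, 1.72 and 3.67 in WT against 20.3, 0.212 and 0.0774 in DKO, so that 1 deep DKO library was high and the other DKO libraries were near 0.

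Among the members lower in DKO, Zfp668, with 16 fingers and no KRAB box found, had the smallest p. Its RPKM was 11.7, 6.27 and 6.01 in WT replicates 1 to 3 and 1.06, 2.32 and 0.437 in the DKO replicates, from 1472, 177 and 118 reads and 142, 64 and 11 reads. Every WT library was above every DKO library, and the log2 difference was -2.01 ± 0.54 (SE, adjusted p = 0.215, limma). Zfp668 exceeded RPKM 3 in at least 2 WT but fewer DKO libraries. The filter of the table let it in through the genotype where it is high, so no weight is placed on its separation or p. Zfp593, related to yeast Bud20, which escorts the large ribosomal subunit out of the nucleus, was at 15.5, 25.2 and 15.5 in WT against 4.12, 0.921 and 11.5 in DKO. The genotypes did not overlap, with a log2 difference of -1.95 ± 0.63 (SE, adjusted p = 0.279, limma). Zfp259, now named Zpr1, a chaperone of translation elongation factor eEF1A, was at 39.1, 63.6 and 43.8 in WT against 49.6, 17.8 and 11.2 in DKO. In that gene DKO replicate 1 stood within the WT range and the other DKO libraries below it.

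The rest of the 10 lower members with the smallest p were Zfp319, Zfp213, Zfp513, Zfp523, Zfp3, Zfp566 and Zfp511, with log2 differences from -0.91 for Zfp513 to -1.71 for Zfp319. Zfp523, the mouse counterpart of human ZNF76 and a relative of Zfp143, was at RPKM 12.7, 3.54 and 4.69 in WT against 1.05, 3.53 and 1.80 in DKO. Its lowest WT and highest DKO library were almost equal. Zfp213 was at 19.97, 7.30 and 7.25 in WT against 6.73, 4.17 and 1.99 in DKO, and Zfp566 at 5.28, 8.33 and 20.4 in WT against 4.55, 2.42 and 5.13 in DKO. Neither overlapped between the genotypes. Zfp319, Zfp513, Zfp3 and Zfp511 overlapped, and the Zfp319 row is a model of 321 bases without a match in GENCODE M21, with 52, 15 and 18 reads in WT against 2, 18 and 1 in DKO. Zfp414, Zfp740, Zfp217, Zfp326 and Zfp12 were the other members without overlap, with log2 differences from -0.20 to -0.57. Zfp414 shares 25.9% of its 36-base words with other genes. Zfp319, Zfp523, Zfp3 and Zfp217 passed the filter of the table through WT only, as Zfp668 did.

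Among the members higher in DKO, Zfp54, with a KRAB box and 12 fingers, had the smallest p. It was at RPKM 1.41, 4.09 and 1.02 in WT against 3.80, 18.2 and 15.6 in DKO, from 116, 75 and 13 reads and 332, 327 and 255 reads. DKO replicates 2 and 3 were far above all WT libraries, while DKO replicate 1 was just below WT replicate 2, and the log2 difference was 1.98 ± 0.64 (SE, adjusted p = 0.279, limma). Zfp788, a KRAB gene with 23 fingers, was at 1.61, 1.41 and 1.86 in WT against 5.83, 6.97 and 3.48 in DKO. Zfp677, another KRAB gene, was at 2.02, 1.28 and 2.79 in WT against 7.99, 4.32 and 5.54 in DKO. In both genes every DKO library was above every WT library, with adjusted p of 0.392 and 0.412 (limma). Zfp54, Zfp788 and Zfp677 exceeded RPKM 3 in at least 2 DKO but fewer WT libraries. The filter of the table let them in through the genotype where they are high, so no weight is placed on their separation or p.

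Zfp143, an activator of small nuclear RNA genes and of many protein-coding promoters, was at RPKM 6.84, 4.90 and 6.12 in WT against 12.3, 9.32 and 14.6 in DKO. The groups were separate and the WT libraries close to each other, with a log2 difference of 0.90 ± 0.39 (SE, adjusted p = 0.428, limma). Zfp628 was at 0.824, 2.20 and 1.97 in WT against 5.37, 4.89 and 3.96 in DKO, also separate. Zfp90, a KRAB gene, was at 0.106, 1.73 and 1.66 in WT against 1.80, 6.12 and 4.18 in DKO, where the lowest DKO and the highest WT library nearly met. Zfp869, Zfp672, Zfp266 and Zfp202 completed the 10 higher members with the smallest p, with log2 differences from 0.80 for Zfp266 to 1.31 for Zfp202. Of these 4, Zfp266 alone did not overlap between the genotypes. Zfp280d, Zfp94, Zfp579, Zfp35, Zfp692, Zfp317, Zfp748 and Zfp219 were the other members without overlap, with log2 differences from 0.53 to 0.92. Zfp628, Zfp90, Zfp202, Zfp94, Zfp748 and Zfp219 also exceeded RPKM 3 in at least 2 DKO but fewer WT libraries. No weight is placed on their separation or p.

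**Figure D2:**
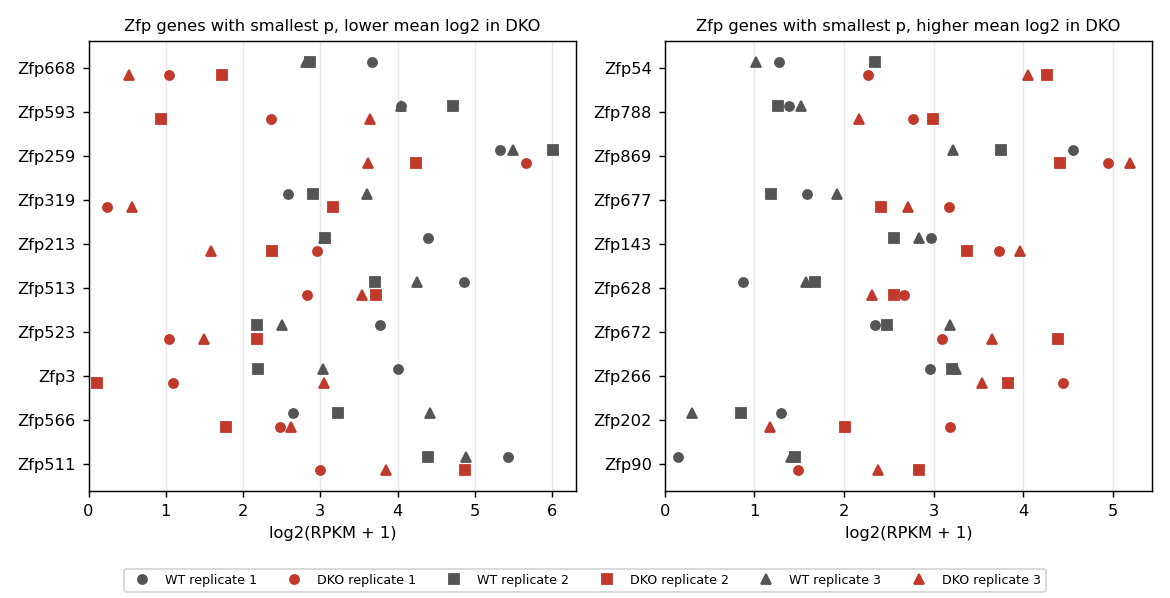
Level in each library, as log2(RPKM + 1), of the 10 Zfp genes with the smallest p on the lower side (left) and on the higher side (right); grey is WT, red is DKO, and the symbol gives the replicate. Zfp668, Zfp593, Zfp213, Zfp523 and Zfp566 on the left and Zfp788, Zfp677, Zfp143, Zfp628, Zfp266 and Zfp90 on the right are separate between genotypes, while Zfp54 overlaps through DKO replicate 1. Zfp668, Zfp319, Zfp523 and Zfp3 passed the filter of the table through WT only. Zfp54, Zfp788, Zfp677, Zfp628, Zfp90 and Zfp202 passed it through DKO only.

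Of the 48 Zfp genes with a KRAB box found, 33 had a log2 difference above 0 and 15 below, with a median of 0.27, where the 96 with fingers and no such box had 49 above and 47 below, with a median of 0.02. The difference between these classes was not tested. The KRAB median was 0.13 without WT replicate 3, 0.16 without DKO replicate 1, 0.42 without WT replicate 1, 0.14 with voom and 0.44 with quantile normalization. The unadjusted threshold was passed by 4 KRAB genes on the higher side and 0 on the lower, all short of the adjusted threshold (8.33% and 0%, against 2.89% and 8.15% of all genes). The median RPKM of the KRAB genes was 5.79, 3.91 and 3.31 in WT replicates 1 to 3 and 6.98, 5.10 and 5.00 in the DKO replicates. The DKO library was the higher one at each replicate number, but WT replicate 1, of the pair with double-positive thymocyte markers, lay above DKO replicates 2 and 3. The members without a KRAB box were at medians of 7.22, 5.10 and 5.02 in WT against 7.23, 5.85 and 6.82 in DKO. Of the KRAB genes 12 exceeded RPKM 3 in at least 2 DKO but fewer WT libraries and 3 the other way round. Members for which the filter favoured a difference are thus counted in these values. With the members above RPKM 3 in at least 2 libraries of each genotype only, a choice made after seeing the data, the KRAB genes had a median of 0.16 (20 of 30 above 0) and those without a KRAB box one of 0.02 (35 of 68), where 43.7% of all such genes were above 0 with a median of -0.09.

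**Figure D3:**
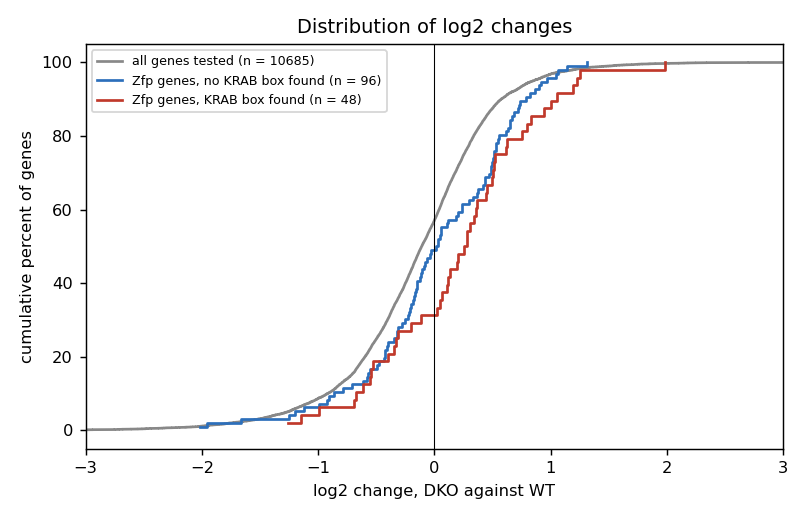
Cumulative percent of genes (y) by log2 difference between DKO and WT (x) for all 10685 genes tested, the 96 Zfp genes without a KRAB box found and the 48 with one. The medians are -0.11, 0.02 and 0.27.

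**Figure D4:**
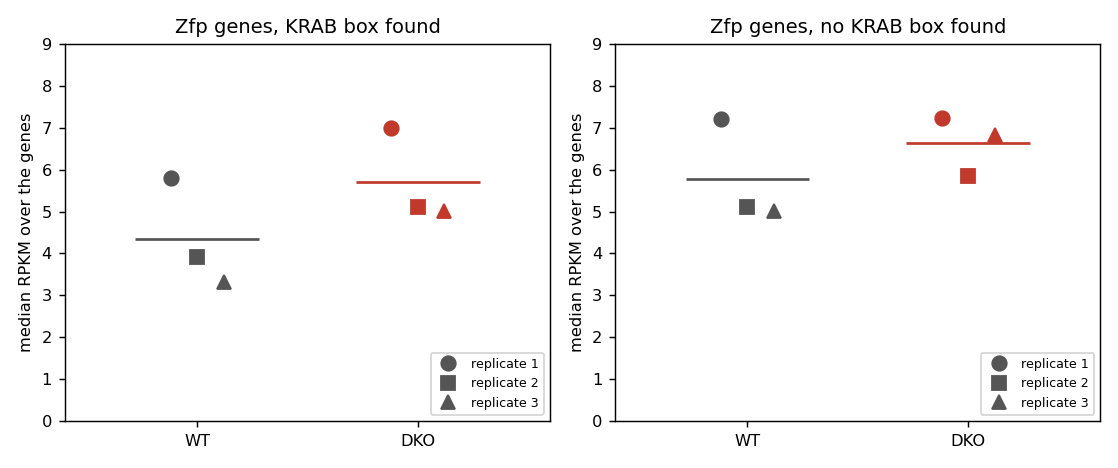
Median RPKM over the Zfp genes with a KRAB box found (left, 48 genes) and without (right, 96 genes) in each library, with the mean of 3 libraries as a line. Replicate 1 is the highest library in every genotype and class, and the KRAB medians run from 3.31 to 6.98.

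By number of fingers, members with 10 or more had a median log2 difference of 0.27 (39 of 64 above 0), those with 4 to 9 one of 0.07 (36 of 61) and those with 3 or fewer one of -0.12 (9 of 22). The KRAB genes are mostly among the first, so these groupings are not independent. With members divided by level into 3 groups of 50 to 51, the lowest group (median RPKM 3.28) had a median of 0.25, the middle group (5.74) one of -0.03 and the highest group (14.5) one of 0.06. The lowest group lies near the filter of RPKM 3 and holds members listed through 1 genotype. Examples are Zfp788, Zfp628 and Zfp90 through DKO, and Zfp438 and Zfp217 through WT. The groups by fingers hold such members too, so no weight is placed on these medians.

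Of 52 genes listed for known roles 30 were in the table, 29 of them members, with 15 of the 30 above 0 and a median log2 difference of -0.02, and 24 of the 30 (80.0%) overlapped between the genotypes, near the 82.8% of all genes. Zfp335, needed for T cells to complete maturation after the thymus, was at RPKM 9.23, 4.14 and 3.78 in WT against 5.68, 0.804 and 2.07 in DKO, overlapping (adjusted p = 0.615, limma). Zfp622, related to yeast Rei1 of cytoplasmic ribosome maturation, was at 30.7, 53.0 and 31.5 in WT against 78.8, 37.3 and 28.9 in DKO. Zfp598, the ubiquitin ligase that marks collided ribosomes, was at 6.03, 12.9 and 12.9 in WT against 20.5, 3.83 and 8.07 in DKO. In both of these DKO replicate 1 was the highest library and the rest overlapped. Zfp148 (ZBP-89) was at 10.2, 4.48 and 0.818 in WT against 6.92, 7.98 and 7.11 in DKO, with WT libraries spread widely around the DKO values. Zfp281, a regulator of pluripotency genes in embryonic stem cells, was at 3.02, 4.39 and 2.01 in WT against 6.29, 6.55 and 1.92 in DKO.

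Among members tied to repression, Zfp217, which works with the corepressor CtBP, was at RPKM 3.21, 3.14 and 3.94 in WT against 2.81, 1.67 and 3.10 in DKO, separate by a narrow margin. Zfp809, a KRAB protein that silences murine leukaemia proviruses in embryonic stem cells, was at 5.18, 7.66 and 11.5 in WT against 3.09, 0.182 and 9.20 in DKO, overlapping. Zfp219, with 9 fingers, was at 2.46, 0.943 and 2.58 in WT against 4.46, 3.28 and 3.23 in DKO, with every DKO library above every WT library (adjusted p = 0.668, limma). As given above, Zfp217 and Zfp219 each passed the filter of the table through the genotype where they are high. Zfp326, a partner of the DBIRD complex of transcription and splicing, was at 7.59, 7.89 and 7.76 in WT against 5.78, 7.17 and 6.53 in DKO, a small difference with separate groups. Zfp828, now Champ1, a chromosome alignment protein, was at 5.32, 9.82 and 8.70 in WT against 16.6, 15.2 and 8.05 in DKO. The remaining members with listed roles, Zfp91, Zfp110, Zfp263, Zfp106, Zfp346, Zfp277, Zfp161 (now Zbtb14), Zfp592, Zfp830, Zfp292, Zfp407, Zfp260, Zfp932 and Zfp715, all overlapped between genotypes, with log2 differences from -0.31 for Zfp346 to 0.72 for Zfp260. Zfp932 shares 67.1% of its 36-base words with other genes, so its reads may have been split with them.

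Zfp genes often lie in clusters of relatives. In RefSeq gene order (GRCm38.p6, used for neighbours only) 144 members were placed, and 41 of them fell in 9 runs of at least 3 members with at most 5 other protein-coding genes between neighbours. In the run of Zfp52, Zfp160, Zfp51, Zfp53, Zfp677 and Zfp54, all with a KRAB box, 6 of 6 had a log2 difference above 0, from 0.34 to 1.98. In the deeper pair 5 of the 6 were above 0, Zfp677 alone was separate between the genotypes, and Zfp52 was below 0 under 2 of the 20 alternatives (lowest -0.48). Zfp52 was at RPKM 6.74, 2.71 and 1.13 in WT against 15.4, 0.179 and 5.78 in DKO, and Zfp51 at 11.5, 3.88 and 0.840 in WT against 14.9, 9.02 and 2.98 in DKO. In the run of Zfp689, Zfp688, Zfp747, Zfp553 and Zfp764, 5 of 5 were below 0, from -0.31 to -0.99, and 0 of 5 were separate. In the deeper pair, however, 4 of these 5 were above 0, at 2.29 for Zfp689, 0.54 for Zfp747, 0.33 for Zfp553 and 0.28 for Zfp764. The mean RPKM of Zfp689 was higher in DKO (6.85) than in WT (2.91), and its log2 difference was above 0 under 4 of 19 alternatives. The genes of these runs were chosen after their values were seen. In the run of Zfp52, the genes Zfp52, Zfp160, Zfp677 and Zfp54 passed the filter of the table through DKO only. In the run of Zfp689, the genes Zfp689, Zfp747 and Zfp553 passed it through WT only. The filter bears on the signs in both runs. Zfp688 was at 26.2, 12.5 and 17.9 in WT against 18.6, 5.00 and 6.50 in DKO. Zfp747 and Zfp764 share 49.9% and 42.1% of their 36-base words with other genes, so their values are uncertain. The other 7 runs held members on both sides of 0, with medians from -0.40 to 1.00. Neighbours can share reads, and 14 of the 147 matched members shared more than 20% of their 36-base words.

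**Figure D5:**
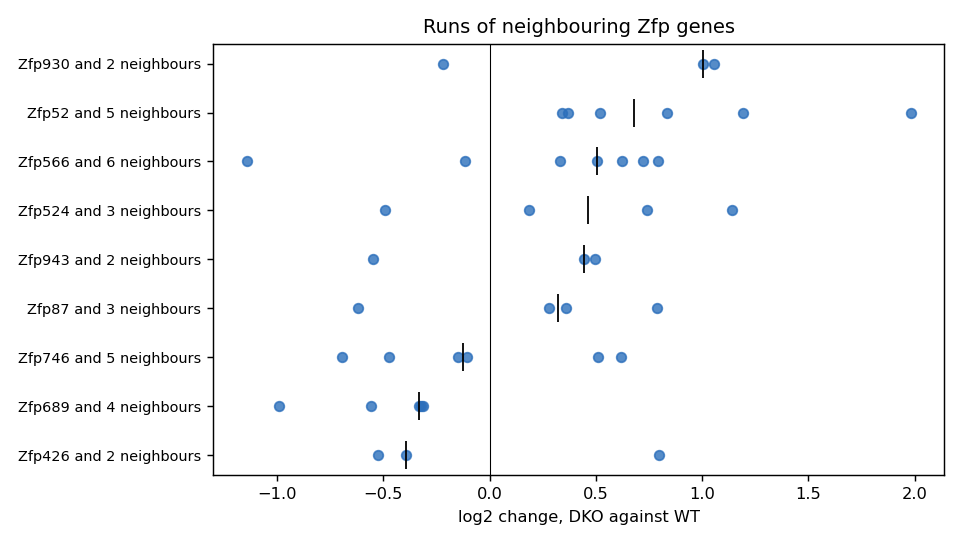
Log2 difference between DKO and WT (x) for each Zfp gene (dot) in 9 runs of neighbouring Zfp genes (y, named by 1 member), with the median of the run as a vertical bar. The run named for Zfp52 lies above 0 and the run named for Zfp689 below 0 in every gene over the 6 libraries, but 4 of the 5 genes of the latter are above 0 in the deeper pair, and the others cross 0.

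Values of 0 were few. Only 4 members had a 0 in any library, 5 values in all, and none was at 0 in every library of a genotype. Each library had 0 to 2 members at 0, where 0.176% to 2.69% of all listed genes were. Every listed gene exceeded RPKM 3 in at least 2 libraries, so the filter of the table bears on these counts. Zfp428 was at RPKM 0, 0.411 and 5.31 in WT against 0, 2.94 and 7.99 in DKO, with 0 reads in the deeper library of each genotype and 27 and 52 reads in the male libraries. Zfp790 was at 0, 1.92 and 1.94 in WT against 4.71, 0.197 and 3.59 in DKO, from 0 reads in the deep WT library and 582 in the deep DKO library. Zfp846 was listed at 0 in DKO replicate 2 and Zfp438 in DKO replicate 3, and both overlapped between the genotypes. Because a 0 in a shallow library allows more RNA than in a deep one, members were also counted under a common floor, 3 reads in the shallowest library at the length of each gene (median RPKM 0.194). Under it were 3, 1 and 1 members in WT replicates 1 to 3 and 3, 8 and 6 in the DKO replicates, where 1.70% to 2.36% and 3.18% to 6.09% of all listed genes lay under theirs. Such counts cover counting error only, since reads after amplification are not independent molecules.

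A list of corepressor and heterochromatin genes was examined too. It holds Trim28 and Setdb1, through which KRAB proteins act, but is broader than the partners of KRAB proteins. Of 47 listed corepressor and heterochromatin genes 42 were in the table, with 30 below 0 (71.4%, against 57.1% of all genes) and 12 above 0 and a median log2 difference of -0.26. Without adjustment 5 lower genes (11.9%, against 8.15% of all genes) and 0 higher genes (against 2.89%) passed p of 0.05, and 0 passed after it. Trim28 was at RPKM 100.2, 47.2 and 68.1 in WT against 58.9, 34.6 and 40.1 in DKO, overlapping (adjusted p = 0.519, limma). Setdb1 was at 13.9, 15.7 and 17.2 in WT against 11.7, 20.4 and 23.8 in DKO, with DKO values on both sides of the WT range. Rbbp7, a histone-binding subunit of several deacetylase complexes, was at 153, 145 and 157 in WT against 88.0, 102 and 108 in DKO, with separate groups (log2 difference -0.61 ± 0.20 SE, adjusted p = 0.292, limma). Uhrf1 and Dnmt1, which copy DNA methylation at replication, were at 6.37, 7.55 and 8.13 against 4.41, 0.0787 and 1.30, and at 34.6, 27.0 and 26.1 against 15.6, 14.0 and 20.6. Suv39h1, a histone H3 lysine 9 methyltransferase, was at 24.0, 16.9 and 24.2 in WT against 16.2, 8.07 and 6.23 in DKO. These 3 genes were separate too. They and Rbbp7 were named for having the smallest p of the list, so no weight is placed on their separation. Of the 42 genes 8 were lower and 1 higher without overlap, where 11.4% and 5.72% of all genes were. The rest (78.6%, against 82.8% of all genes) overlapped. The cell cycle genes, with sums given above, were lower in the same libraries, and a link between the 2 was not tested.

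Other zinc finger families in the table had few genes. The 18 Zbtb genes had 7 above 0 and a median log2 difference of -0.27, the 9 Zscan and Zkscan genes 6 above 0 and 0.19, and the 11 Zc3h genes 6 above 0 and 0.06. Families were taken by the symbols of the table. Zfp161, Zfp238 and Zfp295 (now Zbtb14, Zbtb18 and Zbtb21) and Zfp187 (now Zscan26) were therefore counted as Zfp genes. Their log2 differences were -0.15, 0.55, 0.03 and 0.73. No difference between these families and the Zfp genes was tested. A genotype by sex term rests on 1 male library of each genotype, so it cannot tell sex from a single library and its calls say nothing about sex. By limma, with 2 residual degrees of freedom, it was called for 0 of 10685 genes, and 2 members (Zfp444 and Zfp512) had an unadjusted p of 0.05 or less, where 2.74% of all genes did. Zfp444 was at RPKM 1.66, 4.18 and 4.52 in WT against 14.1, 12.4 and 0.0579 in DKO, with the male DKO library the lowest and the female ones the highest (adjusted p = 1.00, limma).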

How the data were processed

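The table deposited by the authors holds RPKM for 10772 genes in 6 libraries, beside a gene length. Alignment used Bowtie against mm9, per the submitters' processing notes. Nothing in the sources used here gives versions, the annotation, how reads were counted or whether strand was used. Polyadenylated RNA went through a low-input amplification and an indexed Illumina kit, per the labels' protocols. Columns headed Set1 were taken as replicate 1, and titles were followed where descriptions number both female DKO samples 2.

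RPKM times length was a whole multiple of a step, within 0.05, for 99.6% to 100% of the values of a library, which gave reads and totals. RPKM is not a count, so the main test used no count model, and voom on the recovered reads was run as an alternative. Of rows with one file symbol the row with the highest mean was kept (10745 genes), and the test took those reaching RPKM 1 in 3 or more libraries (10685 genes). The model was limma (3.58.1, R 4.3.3; trend, 4 residual df) on log2(RPKM + 1), and p-values were adjusted over all genes tested by the Benjamini-Hochberg method. The script was tested on simulated data. The Zfp genes, lists and naming rule (10 members a side by p, 10 by level, members at 0, and listed genes) were chosen with earlier results of these data known. Sequence classes came from translated GENCODE M21 transcripts. Scripts used matplotlib 3.10.9, pandas 2.3.3 and numpy 2.4.6 under Python 3.11.15.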

Additional observations from a re-analysis of the deposited data

How the results depend on the processing

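Under 20 alternatives no Zfp gene passed an adjusted p of 0.05 in any fit (smallest 0.115, voom). The genes called lower numbered 9 as reported, 16 with a pseudocount of 3, 20 with array weights, 1 in the 4 shallower libraries, 0 with voom on recovered reads and 0 to 13 with 1 library left out. Those called higher numbered 2 as reported, 0 with a pseudocount of 0.1, in the 4 shallower libraries and with voom, 1 with a pseudocount of 0.5, no filter, a mean RPKM of at least 3, median log2 ratio scaling, equal sums and the replicate block, 4 with array weights and 0 to 1 with 1 library left out. Zfp genes at an unadjusted p of 0.05 on the lower side numbered 5 with array weights, 6 with sex as a covariate, 7 with the replicate block, 10 with voom and 2 to 8 with 1 library left out, against 3, where 9.11%, 7.73%, 10.5% and 10.4% of all genes passed in the first 4. With 1 library left out 4.94% to 10.4% of all genes passed on this side. On the higher side the Zfp genes numbered 14 with quantile normalization, 13 without the variance trend, 14 with voom and 1 to 9 with 1 library left out, against 6, where 4.90%, 3.44% and 5.27% of all genes passed in the first 3. With 1 library left out 2.06% to 3.50% of all genes passed on this side. The members' median ran from -0.0017 (without DKO replicate 1) to 0.26 with 1 library left out. Members at least 2-fold lower without overlap numbered 3 with median log2 ratio scaling and with quantile normalization (5 as reported), and those 2-fold higher 14 with quantile normalization (7 as reported). The share of all genes under these scalings was not computed, so no weight is placed on these counts. Quantile normalization put 103 of the 152 members above 0, against 87, where 50.9% of all genes were above 0, against 42.9%. Deviations of same-numbered libraries correlated at 0.23, 0.14 and 0.08, each library best with its own number, and the block moved the counts as given.

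Of 56 members named by rule 39 kept their direction in every alternative that tested them, 34 of them in all 20 and the other 5 in 16 to 19. None of the 17 others passed in any fit. In the 4 shallower libraries Zfp407 was at -0.34, Zfp622 at -0.31, Zfp790 at -0.32 and Zfp830 at 0.73. With array weights Zfp161 was at 0.039 and Zfp346 at 0.0016. With median log2 ratio scaling Zfp277 was at 0.022, Zfp706 at 6.5e-05 and Zfp830 at 0.0027. With quantile normalization Zfp161 was at 0.17, Zfp207 at 0.0045, Zfp706 at 0.061 and Zfp932 at 0.011. With voom Zfp106 was at -0.20, Zfp277 at 0.13, Zfp330 at -0.0037 and Zfp598 at 0.63. With 1 library left out Zfp1 ran from -0.23 to 0.47, Zfp106 from -0.19 to 0.21, Zfp110 from -0.083 to 0.53, Zfp161 from -0.45 to 0.20, Zfp207 from -0.34 to 0.030, Zfp277 from -0.39 to 0.43, Zfp330 from -0.055 to 0.45, Zfp346 from -0.89 to 0.32, Zfp407 from -0.19 to 0.45, Zfp598 from -0.74 to 0.33, Zfp622 from -0.17 to 0.53, Zfp706 from -0.34 to 0.089, Zfp715 from -0.20 to 0.49, Zfp830 from -0.58 to 0.79, Zfp846 from -1.003 to 0.43 and Zfp932 from -0.26 to 0.032. The median of members without a KRAB box was -0.019 with a pseudocount of 0.1, -0.012 in the 4 shallower libraries and -0.097 to 0.14 with 1 library left out, and that of KRAB members 0.13 to 0.42. The causes were not tested. With a floor of 10 reads 1 to 16 members lay under it per library.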
